A study of Mus musculus with 6 samples.

Results

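The genes described here carry cyclic AMP (cAMP) signalling: the adenylyl cyclases, the phosphodiesterases, the subunits of protein kinase A (PKA), the A-kinase anchoring proteins (AKAPs) and the genes named CREB. They were taken by gene symbol (PDE or ADCY followed by a digit, PRKACA, PRKACB, PRKAR, AKAP or CREB at the start), which gave 70 rows with 68 symbols among the 20323 rows of the table. PDE4C and PDE8B each have a pair of rows. Of the 70 rows, 44 passed the filter on low counts, 19 had some counts but did not pass, and 7 had 0 counts in all 6 libraries.

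Adenylyl cyclases make cAMP from ATP when receptors coupled to the stimulatory G protein are engaged, and inhibitory G proteins hold them back. cAMP releases the catalytic subunits of PKA from the regulatory ones, AKAPs tether the kinase to particular places in the cell, and the transcription factor CREB1 is one of its substrates. Phosphodiesterases end the signal by hydrolysing cAMP, cGMP or both. In fibroblasts, agents that raise cAMP are known for opposing the switch to the myofibroblast state that TGF-β drives.

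RNA was sequenced from RFB cells, kidney fibroblasts by their labels. CXCL10, a chemokine whose receptor CXCR3 couples to Gi, was added with TGF-β for 3 libraries, and 3 more had TGF-β alone, so that both groups carry TGF-β and neither is untreated. Titles of the CXCL10 libraries carry a volume of 5 µl with no concentration, and no time of treatment was given. The labels call the organism mouse, but all 20323 row identifiers are human Ensembl genes, so levels refer to human gene models. The design text speaks of a SUV39H1 knockdown, which no sample label names.

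Total counts per library ranged from 12838106 to 15587409, and 3 counts, the limit that a count of 0 allows, came to 0.192 to 0.234 CPM (counts scaled to a common library size). Fibroblast markers were abundant, with a sum of 52481 to 56807 CPM in CXCL10 libraries and 54811 to 62254 CPM in TGF-β libraries. Of the markers of other cell types, CD3E and CDH16 had 0 counts in every library, PTPRC had at most 7 and EPCAM at most 8, while CD68 had 501 to 591 counts and TEK 614 to 766. Epithelial markers summed to 18.0 to 25.8 CPM in CXCL10 libraries and 23.7 to 26.8 CPM in TGF-β libraries. Of that list CDH1 (3 to 19 counts with CXCL10 and 22 to 49 with TGF-β alone) and MUC1 (76 to 119 counts with CXCL10 and 148 to 210 with TGF-β alone) were called lower in the paired fit, as were 8.04% of all genes. Their log2 differences were -1.89 and -0.62 (adjusted p = 0.00898 and 0.0138). CLDN4 (81 to 92 counts with CXCL10 and 61 to 74 with TGF-β alone) and PAX8 went the other way, by 0.45 and 0.32, and were not called. The part of these markers in the results was not tested. Replicate 1 of both groups stood apart. On the first principal component, which held 48.4% of the variance, CXCL10 replicates 1, 2 and 3 scored -32.8, -9.78 and -9.67, and TGF-β replicate 1 scored -5.54, near the CXCL10 libraries, while TGF-β replicates 2 and 3 scored 28.3 and 29.5. Calls are therefore given from a fit without pairing and from one with the replicate number as a block (the paired fit), and for called members also without TGF-β replicate 1.

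With CXCL10, transcripts of the cAMP-specific phosphodiesterases PDE4B, PDE4D and PDE8A were higher in the paired fit, and those of the cyclases ADCY7 and ADCY9, of the kinase subunit PRKACB and of the cGMP-specific phosphodiesterase PDE5A were lower. In the same fit the anchoring protein AKAP12 rose and CREBRF, a regulator of CREB3, fell. In the paired fit 6 of the 44 tested members were called higher and 6 lower (edgeR quasi-likelihood, adjusted p under 0.05 over all genes tested), against 9.71% and 8.04% of the 11970 genes tested. These are 13.6% of the members in each direction. The median log2 difference was -0.02 over the members and -0.01 over all genes. In the unpaired fit 0 members were called by edgeR, as were 0% of all genes in either direction (smallest adjusted p = 0.161 among the members and among all genes). At an unadjusted p under 0.05 that fit had 12 members, 5 higher and 7 lower, beside 20.5% of all genes. DESeq2 without pairing called PDE4B higher and CREBRF lower, where it called 1.44% and 1.36% of all genes. With pairing it called 3 members higher and 4 lower, against 5.71% and 3.79%. Leaving out TGF-β replicate 1 gave 6 members higher and 6 lower in the unpaired edgeR fit, against 10.7% and 8.61% of all genes, and 11 of the 12 paired calls were among them. Leaving out any other single library gave 0 members higher and 0 lower. TGF-β replicate 1 lay on the CXCL10 side of its group for all 12 paired calls, so that leaving it out widens their differences. The fit without it is therefore no separate support for these calls.

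How much of each gene the cells held was read from the authors' FPKM, which scales counts by length as well as depth and so allows genes to be compared. Among the cyclases, phosphodiesterases and PKA subunits, the regulatory subunit PRKAR1A was the most abundant and stood at 102.9 ± 9.42 FPKM in CXCL10 libraries and 102.7 ± 1.34 FPKM in TGF-β libraries (SD, n = 3 each, as for all values with ±). After it came the cyclase ADCY7, at 31.1 ± 2.89 FPKM with CXCL10 and 38.8 ± 0.85 FPKM with TGF-β alone, then PRKAR2A at 26.6 ± 4.76 FPKM with CXCL10 and 27.1 ± 2.03 FPKM with TGF-β alone and the catalytic subunit PRKACA at 25.9 ± 1.54 FPKM with CXCL10 and 24.9 ± 2.27 FPKM with TGF-β alone. PRKAR2A and PRKACA lay within each other's spread. Of the phosphodiesterases, PDE8A, at 11.9 ± 2.20 FPKM with CXCL10 and 9.27 ± 0.99 FPKM with TGF-β alone, and PDE5A, at 8.67 ± 1.57 FPKM with CXCL10 and 18.2 ± 7.003 FPKM with TGF-β alone, were the most abundant. PDE4D (7.74 ± 2.23 FPKM with CXCL10 and 5.48 ± 0.88 FPKM with TGF-β alone) and PDE4A (5.95 ± 0.31 FPKM with CXCL10 and 5.97 ± 0.79 FPKM with TGF-β alone) followed and lay within each other's spread. PDE4B was low in both groups, at 2.63 ± 0.97 FPKM with CXCL10 and 1.19 ± 0.62 FPKM with TGF-β alone.

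**Figure D1:**
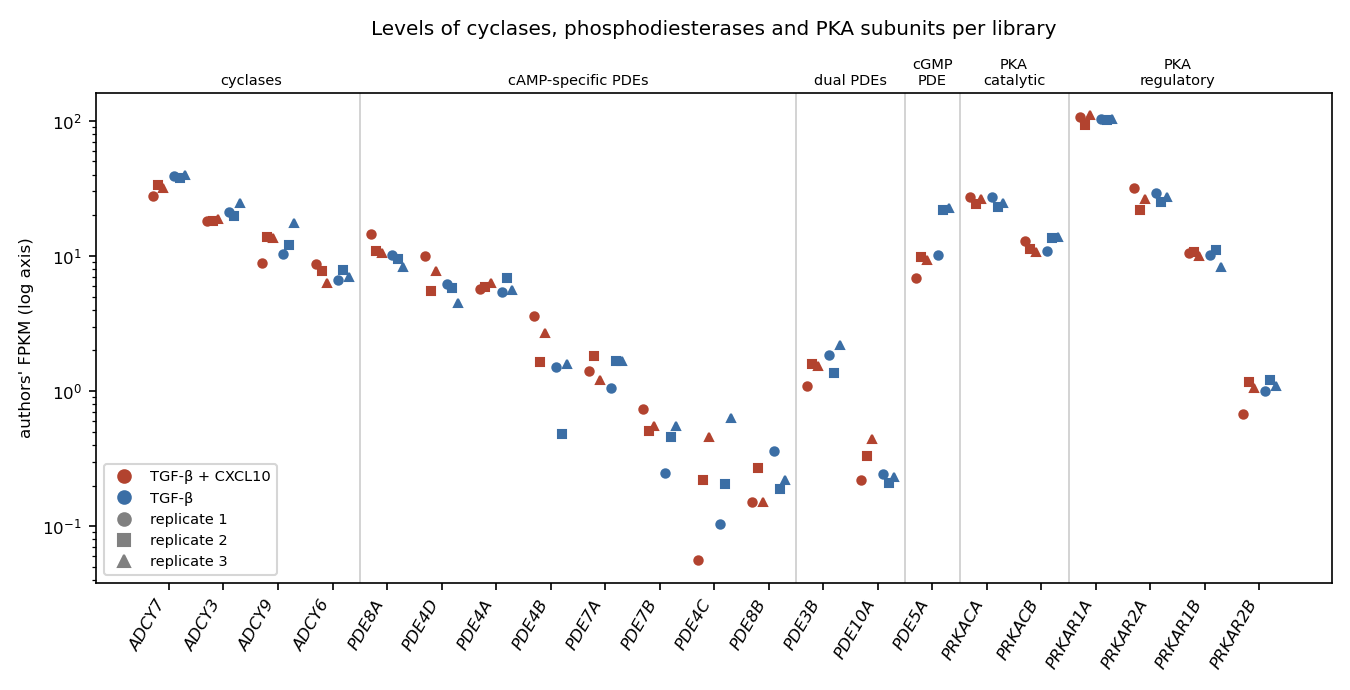
Authors' FPKM (log axis) of the tested cyclases, phosphodiesterases (PDEs) and PKA subunits, with TGF-β plus CXCL10 (red) left of TGF-β (blue) and 1 symbol per replicate. PRKAR1A is highest near 103 FPKM in both groups, ADCY7 lies lower in the CXCL10 libraries, and PDE4B and PDE5A are spread widely among libraries.

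Of the 10 cyclases 6 were hardly detected. ADCY2 and ADCY8 had 0 counts in every library, and ADCY1, ADCY4, ADCY5 and ADCY10 had at most 8 in any. The tested cyclases were ADCY3, ADCY6, ADCY7 and ADCY9. ADCY7, a cyclase that G protein βγ subunits can stimulate, had 117, 145 and 145 CPM in the CXCL10 libraries and 141, 162 and 169 CPM in the TGF-β libraries. CXCL10 replicate 1 was the lowest of all, and TGF-β replicate 1 lay below CXCL10 replicates 2 and 3, so the groups overlapped. The paired log2 difference was -0.22 (SE 0.05, adjusted p = 0.00923), against an unpaired adjusted p of 0.264. Unpaired but without TGF-β replicate 1 it was -0.29 (adjusted p = 0.0462), without CXCL10 replicate 1 it was -0.12, against -0.21 with all libraries, and the paired call was lost without replicate 3 of both groups (0.105).

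ADCY9, a forskolin-insensitive cyclase, had 66.9, 81.6 and 79.9 CPM with CXCL10 and 80.6, 89.6 and 107 CPM with TGF-β alone. Here too TGF-β replicate 1 lay among the CXCL10 values. ADCY9 changed by -0.28 in the paired fit (SE 0.07, adjusted p = 0.0105; 0.218 unpaired, and 0.0292 unpaired without TGF-β replicate 1), a call lost without replicate 3 of both groups (0.181). Without TGF-β replicate 3 its unpaired difference was -0.15, against -0.28 with all libraries. ADCY3 did not pass, at 85.8 ± 2.66 CPM with CXCL10 and 84.8 ± 6.86 CPM with TGF-β alone (paired log2 difference 0.02, SE 0.07), nor did ADCY6, at 40.1 ± 0.83 CPM with CXCL10 and 43.2 ± 2.79 CPM with TGF-β alone (-0.10, SE 0.08). Both are membrane cyclases, and Gi and calcium inhibit ADCY6. Summed over the 10 cyclases, the level was 64.0, 73.3 and 70.7 FPKM in the CXCL10 libraries and 77.1, 77.5 and 88.7 FPKM in the TGF-β libraries, with no overlap between the groups. In CPM the sums did overlap, at 311, 356 and 347 with CXCL10 and 349, 377 and 409.6 with TGF-β alone.

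PDE4B (ENSG00000184588) encodes a cAMP-specific phosphodiesterase that inflammatory stimuli and cAMP itself induce in many cells. It had 206, 79 and 82 counts in the CXCL10 libraries and 77, 30 and 34 in the TGF-β libraries. In CPM, scaled by trimmed mean of M-values (TMM), this was 14.5, 6.24 and 6.15 with CXCL10, against 5.42, 1.87 and 2.55 with TGF-β alone. The groups did not overlap, but the gap between the lowest CXCL10 library and TGF-β replicate 1 was small. Replicate 1 was the highest library of each group, by 1.21 (log2) over the mean of replicates 2 and 3 with CXCL10 and by 1.26 with TGF-β alone. The difference between the groups was a log2 of 1.46 (SE 0.20, adjusted p = 0.000261) in the paired fit, a 2.75-fold difference. The 3 pairs differed by 1.39, 1.67 and 1.22 (log2). In the unpaired fit the value was also 1.46, with an SE of 0.44 and an adjusted p of 0.161. Without TGF-β replicate 1 it was 2.04 (adjusted p = 0.00656), and without CXCL10 replicate 1 it was 0.92 (adjusted p = 0.454), both unpaired. DESeq2 without pairing gave an adjusted p of 0.0180, and the authors' deposited table gave a log2 ratio of 1.14 with an adjusted p of 0.0390. PDE4B was the member that this table called higher, where it called 0.714% of 15691 genes with a count, and it called 0 members lower (0.618% of genes).

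PDE4D (ENSG00000113448), a close relative of PDE4B whose long forms bind AKAPs, had 56.7, 30.3 and 38.7 CPM with CXCL10 and 33.7, 24.4 and 25.5 CPM with TGF-β alone. CXCL10 replicate 2 lay below TGF-β replicate 1, so the groups overlapped. PDE4D rose by 0.56 on the log2 scale in the paired fit (SE 0.09, adjusted p = 0.00107), against adjusted p values of 0.184 in the unpaired fit and 0.0612 by DESeq2 without pairing. The pairs differed by 0.75, 0.31 and 0.60. In the unpaired fit the difference was 0.59, or 0.75 without TGF-β replicate 1 (adjusted p = 0.0269) and 0.31 without CXCL10 replicate 1 (0.510). Replicate 1 exceeded the others of its group by 0.73 with CXCL10 and 0.43 with TGF-β alone.

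The remaining PDE4 genes did not pass. PDE4A stood at 22.3 ± 1.63 CPM with CXCL10 and 22.3 ± 2.45 CPM with TGF-β alone (paired log2 difference -0.00, SE 0.11). PDE4C was near the limit of detection, at 0.14 to 1.03 CPM with CXCL10 and 0.35 to 1.20 CPM with TGF-β alone, and its reads could be split between its rows, the second of which had 0 counts in the CXCL10 libraries and at most 4 in a TGF-β library. By FPKM, PDE4B made up 18.6%, 12.4% and 15.6% of the PDE4 total in the CXCL10 libraries and 11.3%, 3.61% and 12.9% in the TGF-β libraries. PDE4A made up 29.5%, 44.4% and 36.6% with CXCL10 and 40.9%, 51.4% and 45.5% with TGF-β alone. The share of PDE4B overlapped between the groups, since CXCL10 replicate 2 lay below TGF-β replicate 3. In CPM that share was 15.6%, 10.6% and 8.84% with CXCL10 and 9.05%, 3.58% and 4.98% with TGF-β alone, overlapping at TGF-β replicate 1 instead.

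PDE8A (ENSG00000073417), a high-affinity cAMP-specific enzyme that is insensitive to most phosphodiesterase inhibitors, had 54.1, 38.8 and 41.1 CPM with CXCL10 and 40.9, 36.2 and 31.3 CPM with TGF-β alone. The groups overlapped at TGF-β replicate 1. It rose by 0.30 in the paired fit (log2, SE 0.08, adjusted p = 0.0253; 0.256 unpaired) but did not pass without replicate 1 of both groups (adjusted p = 0.0569), without replicate 3 of both (0.162), without TGF-β replicate 1 in the unpaired fit (0.0636), with library totals and pairing (0.0513) or with DESeq2 and pairing (0.110). Without CXCL10 replicate 1 its unpaired difference was 0.15, against 0.31 with all libraries. PDE7A, of another cAMP-specific family, had 5.62, 6.24 and 4.42 CPM with CXCL10 and 3.59, 4.98 and 5.86 CPM with TGF-β alone and did not pass (0.19, SE 0.24), nor did PDE7B (0.58, SE 0.34) or the tested row of PDE8B (-0.23, SE 0.49).

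PDE5A (ENSG00000138735), the cGMP-specific enzyme that sildenafil inhibits, had the lowest adjusted p of all members in the paired fit. It had 43.7, 64.3 and 56.7 CPM with CXCL10 and 62.5, 115 and 125 CPM with TGF-β alone. TGF-β replicates 2 and 3 stood far above the rest, while TGF-β replicate 1 lay just below CXCL10 replicate 2. The paired log2 difference was -0.84 (SE 0.09, adjusted p = 4.71e-05), and the unpaired one -0.88 (SE 0.23, adjusted p = 0.161), or -1.13 without TGF-β replicate 1 (adjusted p = 0.000492). The pairs differed by -0.51, -0.84 and -1.14. Replicate 1 differed from the others of its group by -0.46 with CXCL10 and by -0.94 with TGF-β alone. PDE5A is abundant in smooth muscle, and smooth muscle and pericyte markers moved with it in the paired fit. The 4 tested members of that marker list (DES, NOTCH3, CSPG4 and CNN1) were all called lower there, as were 8.04% of all genes. Unpaired edgeR called none of them (adjusted p = 0.161 to 0.376), and DESeq2 without pairing called DES alone. CSPG4 and CNN1 overlapped between the groups. The sum over the 6 genes of the list was 389 to 558 CPM with CXCL10 and 493 to 659 CPM with TGF-β alone. The defining gene MYH11 had at most 3 counts in any library. Of 11 tested fibroblast marker rows the paired fit called 2 higher and 3 lower, against 9.71% and 8.04% of all genes. The part of these markers in the result was not tested. Fewer cells of a type and less RNA per cell cannot be told apart in bulk RNA.

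The other cGMP-specific rows were not tested, PDE6G and PDE6H with 0 counts in all libraries and PDE6A, PDE6B, PDE6C and PDE9A with at most 11 in any. Among the enzymes that hydrolyse both cAMP and cGMP, PDE3B, the insulin-regulated form, had 6.61, 9.72 and 8.92 CPM with CXCL10 and 11.1, 7.97 and 13.0 CPM with TGF-β alone and did not pass (-0.33, SE 0.19). PDE10A, at 1.27, 2.85 and 3.37 CPM with CXCL10 and 1.97, 1.62 and 2.10 CPM with TGF-β alone, did not pass either (0.33, SE 0.37). PDE1A, PDE1B, PDE1C, PDE2A, PDE3A and PDE11A had at most 16 counts in a library. The proteins that share the PDE name for other reasons were kept apart. PDE12, which trims poly(A) tails of mitochondrial RNA, had 37.5, 34.1 and 38.8 CPM with CXCL10 and 32.2, 29.5 and 26.7 CPM with TGF-β alone, with no overlap between groups, and rose by 0.32 (log2, SE 0.09, adjusted p = 0.0266; 0.161 unpaired, and 0.0220 unpaired without TGF-β replicate 1). That paired call was lost with DESeq2 (0.118) and without replicate 3 of both groups (0.239). PDE6D, a carrier of prenylated proteins, had 3.80, 3.87 and 7.04 CPM with CXCL10 and 5.99, 4.73 and 7.36 CPM with TGF-β alone and did not pass (-0.32, SE 0.21). The centrosomal and Golgi scaffold PDE4DIP did not pass (162 ± 6.98 CPM with CXCL10 and 174 ± 13.2 CPM with TGF-β alone, -0.11, SE 0.05), and its near-identical copies make its count uncertain.

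**Figure D2:**
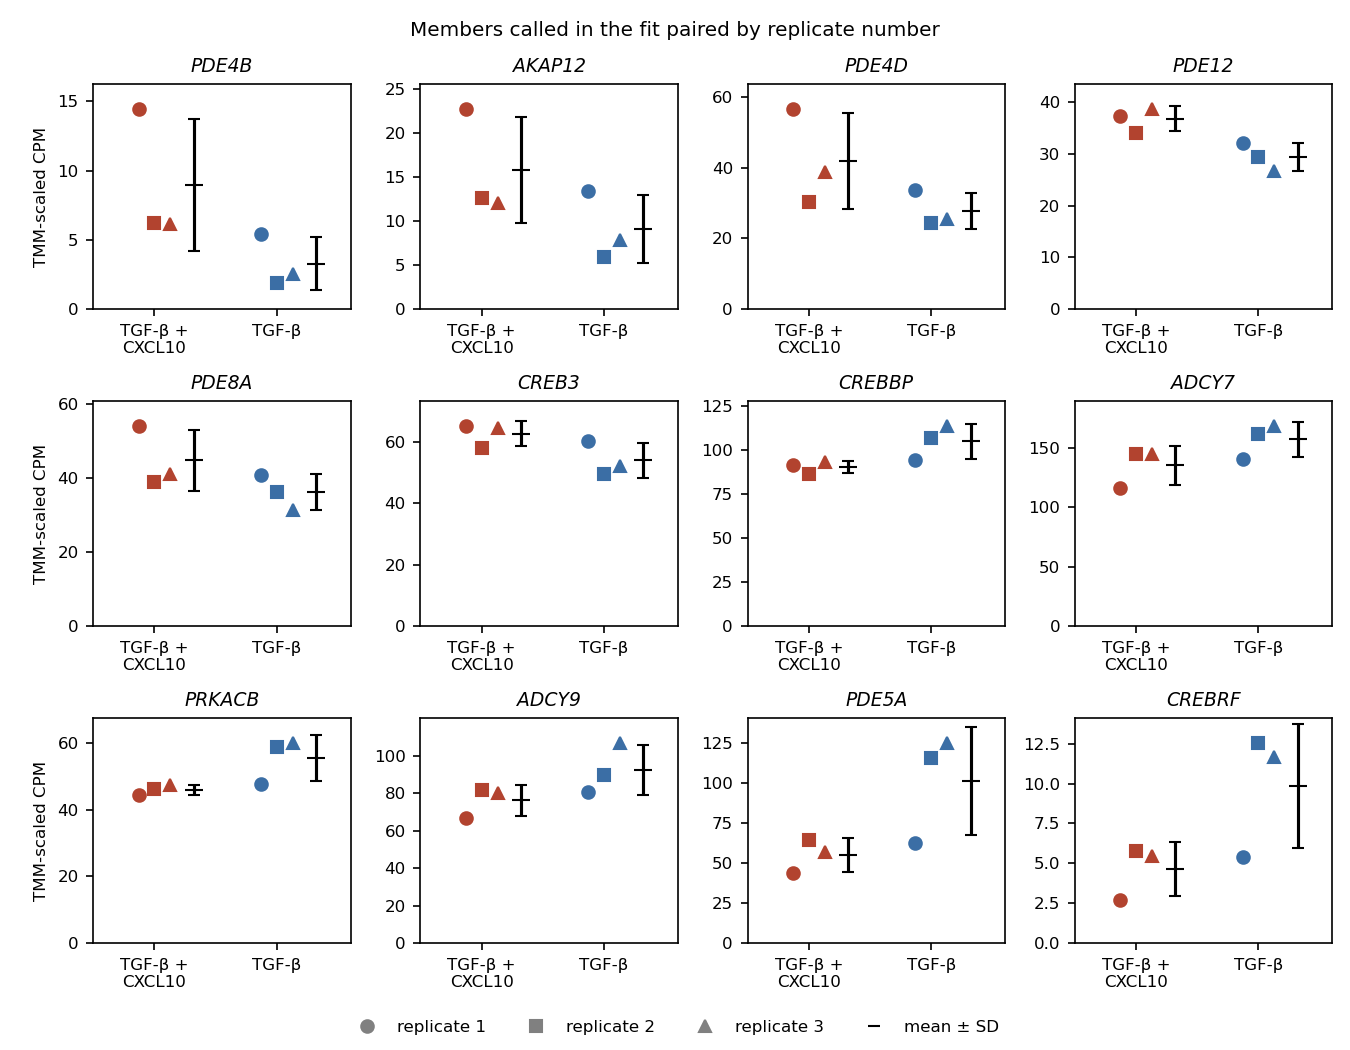
TMM-scaled CPM (linear axes from 0) in each library for the 12 members called in the paired fit, from the largest rise to the largest fall, with TGF-β plus CXCL10 left of TGF-β and the mean ± SD (n = 3) beside the points. In the TGF-β group replicate 1 (circles) lies on the CXCL10 side of replicates 2 and 3 for all 12 genes.

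Of the 6 PKA subunit genes 1 was called in the paired fit. It was called lower, as were 8.04% of all genes. PRKACB (ENSG00000142875), a catalytic subunit, had 44.4, 46.2 and 47.4 CPM with CXCL10 and 47.7, 58.7 and 60.1 CPM with TGF-β alone, without overlap between the groups. The gap to TGF-β replicate 1 was narrow. PRKACB changed by -0.27 in the paired fit (log2, SE 0.07, adjusted p = 0.0264; 0.188 unpaired, and 0.0103 unpaired without TGF-β replicate 1). With pairing it did not pass by DESeq2 (0.133) or without replicate 2 (0.161) or replicate 3 (0.215) of both groups. PRKACA, the other catalytic gene, had 69.6, 58.6 and 65.6 CPM with CXCL10 and 62.4, 53.3 and 54.4 CPM with TGF-β alone, a paired difference of 0.19 that did not pass (SE 0.07, adjusted p = 0.0668). The ratio of PRKACA to PRKACB in FPKM was 2.12, 2.15 and 2.48 with CXCL10 and 2.51, 1.68 and 1.78 with TGF-β alone, TGF-β replicate 1 again lying apart from its group.

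The regulatory subunits set how much of the kinase is held inactive. PRKAR1A had 287, 253 and 267 CPM with CXCL10 and 259, 248 and 255 CPM with TGF-β alone (0.08, SE 0.05), and PRKAR2A, PRKAR1B and PRKAR2B had paired log2 differences of 0.10, 0.05 and -0.18 with SEs of 0.06, 0.10 and 0.25. None of them passed. Regulatory exceeded catalytic subunits by 3.56 to 3.97 times in summed FPKM in CXCL10 libraries and by 3.67 to 3.80 times in TGF-β libraries.

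Set side by side, the phosphodiesterases spanned a wider range of differences than the cyclases and PKA subunits. Wide ranges were also found for the anchoring proteins (-0.56 to 0.82) and the genes named CREB (-1.08 to 0.21). Of 11 tested cyclic nucleotide phosphodiesterase rows 3 were called higher, 1 lower and 7 were not called, with paired log2 differences from -0.84 to 1.46 and a median of 0.19. Of 10 tested cyclase and PKA subunit genes 0 were called higher, 3 lower and 7 were not called, with differences from -0.28 to 0.19 and a median of -0.04. Over all genes tested, 9.71% were called higher and 8.04% lower, and the median was -0.01. All 3 phosphodiesterases called higher were cAMP-specific, and the one called lower was cGMP-specific. Of the 11 tested rows, however, 8 were cAMP-specific, 2 act on both substrates and 1, PDE5A, was cGMP-specific. The cGMP side thus rests on 1 gene. Summed FPKM of the cAMP-specific enzymes was 36.0, 26.6 and 29.6 in the CXCL10 libraries and 25.1, 25.1 and 23.0 in the TGF-β libraries. That of the cGMP-specific enzymes was 7.08, 10.2 and 9.95 with CXCL10 and 10.4, 22.3 and 23.1 with TGF-β alone. Neither FPKM sum overlapped between the groups, though CXCL10 replicate 2 lay close to TGF-β replicate 1 for the cGMP-specific enzymes. In CPM the cAMP-specific sums nearly met, with 107.5 in CXCL10 replicate 2 and 107.0 in TGF-β replicate 1, and the cGMP-specific ones overlapped, with 65.6 in CXCL10 replicate 2 and 62.9 in TGF-β replicate 1. The difference between these classes was not tested, and PDE4B, PDE4D, PDE8A and PDE5A, whose values were given above, make up most of the sums.

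**Figure D3:**
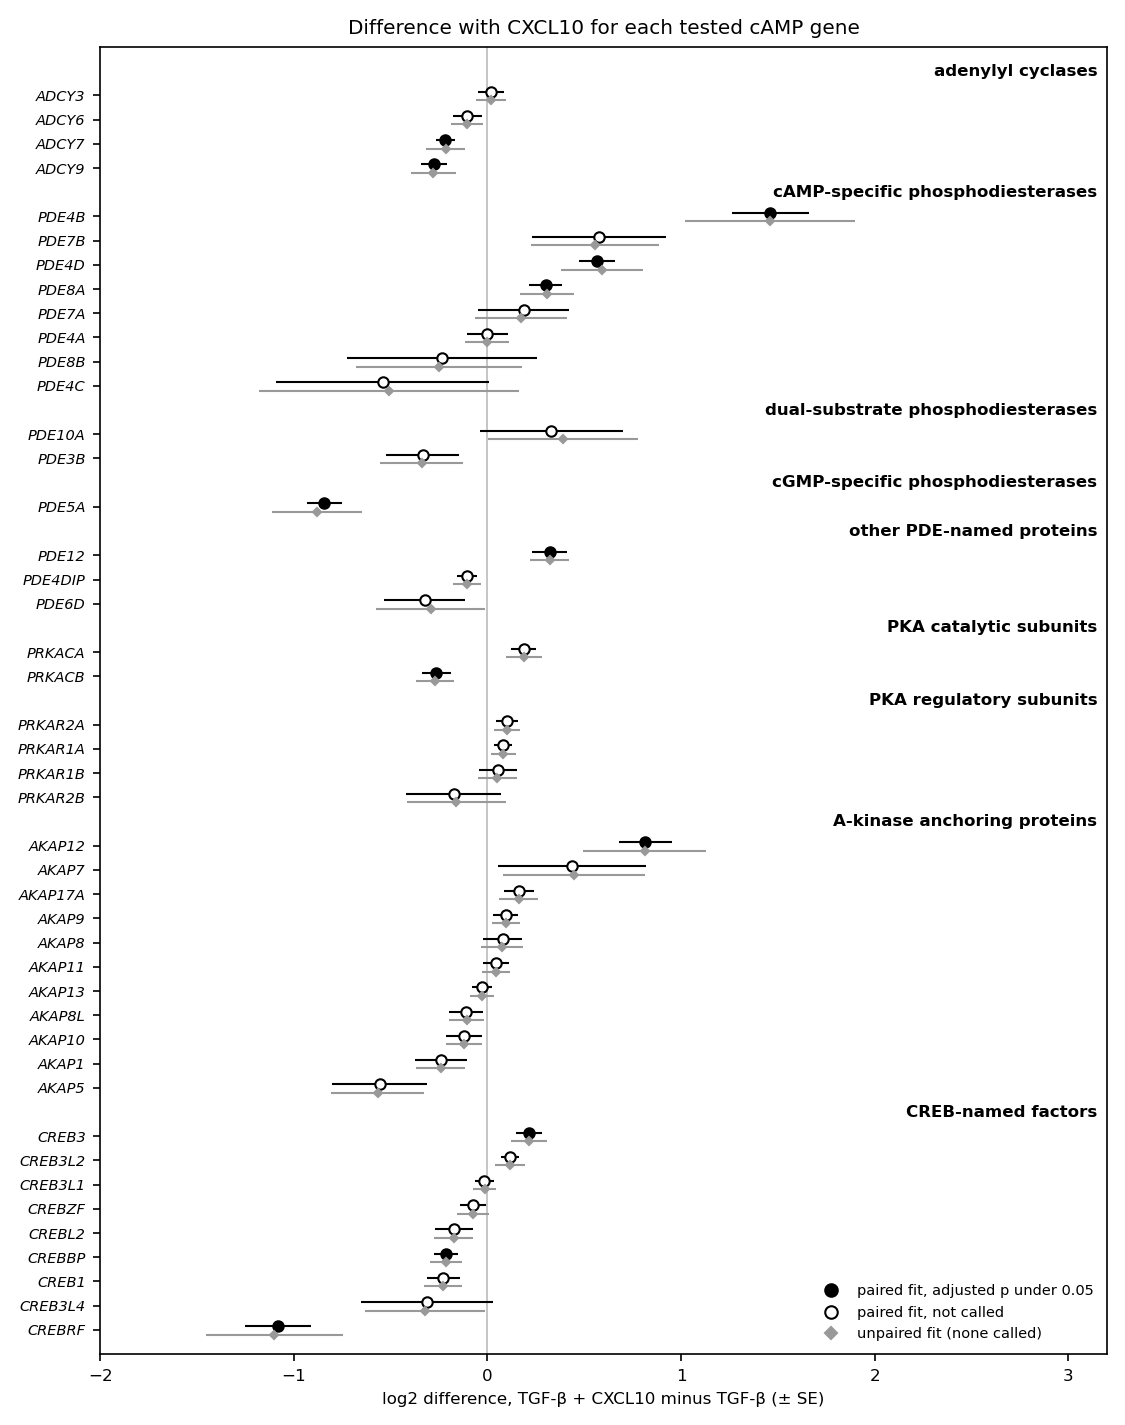
Log2 difference, TGF-β plus CXCL10 minus TGF-β, of each of the 44 tested members by role, with bars of ± SE. Circles give the paired fit, filled where the adjusted p was under 0.05, and grey diamonds the unpaired fit, which called 0 members. Estimates of the fits nearly coincide while the unpaired bars are wider for the called genes, and PDE4B at 1.46 and CREBRF at -1.08 are the extremes.

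Of 15 anchoring protein genes 11 were tested, and the median paired difference was 0.04. In the paired fit 1 was called higher, 0 lower and 10 were not called, against 9.71% and 8.04% of all genes called higher and lower. AKAP12 (ENSG00000131016), a scaffold that holds PKA, protein kinase C and the β2-adrenergic receptor, was the one called. Its levels were 22.8, 12.6 and 12.1 CPM with CXCL10 and 13.4, 5.92 and 7.89 CPM with TGF-β alone, so that TGF-β replicate 1 lay above CXCL10 replicates 2 and 3. AKAP12 rose by 0.82 in the paired fit (log2, SE 0.14, adjusted p = 0.00112), with pairs at 0.76, 1.07 and 0.60. It did not pass without pairing (0.81, adjusted p = 0.206, or 0.0859 by DESeq2). Unpaired, it was 1.21 without TGF-β replicate 1 (adjusted p = 0.0121) and 0.45 without CXCL10 replicate 1 (0.577). Replicate 1 exceeded the others of its group by 0.88 with CXCL10 and 0.96 with TGF-β alone.

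By FPKM the most abundant AKAP was AKAP17A (19.5 ± 0.98 with CXCL10 and 18.0 ± 1.74 with TGF-β alone), which also takes part in splicing. It had 59.6, 60.9 and 54.6 CPM with CXCL10 and 59.6, 47.8 and 49.4 CPM with TGF-β alone and did not pass with all libraries (0.16, SE 0.08), but did in the unpaired fit without TGF-β replicate 1 (log2 0.27, adjusted p = 0.0487). Groups that do not overlap were found for AKAP9, a centrosomal and Golgi scaffold (64.5 ± 2.83 CPM with CXCL10 and 60.4 ± 0.57 CPM with TGF-β alone), and in the other direction for the mitochondrial anchor AKAP1 (10.0 ± 0.41 CPM with CXCL10 and 11.9 ± 0.85 CPM with TGF-β alone), the plasma membrane anchor AKAP5 (3.01 ± 0.40 CPM with CXCL10 and 4.45 ± 0.82 CPM with TGF-β alone) and the nuclear AKAP8L (26.3 ± 1.59 CPM with CXCL10 and 28.4 ± 0.81 CPM with TGF-β alone). None of these 4 passed in edgeR or DESeq2, paired or unpaired, though DESeq2 without pairing gave no adjusted p for AKAP5. Over all members, 3 were higher and 5 lower without overlap, or 6.82% and 11.4% of those tested, against 11.1% and 11.2% of all genes. AKAP4 and AKAP14 had 0 counts in every library.

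Of 11 genes named CREB, 9 were tested. CREB1, the classical PKA substrate, was at 28.6 ± 2.59 CPM with CXCL10 and 33.5 ± 1.74 CPM with TGF-β alone and did not pass (-0.23, SE 0.09, adjusted p = 0.0849), and CREB5 had at most 3 counts in a library. CREBBP, the acetyltransferase that phosphorylated CREB1 recruits, had 91.2, 86.2 and 93.2 CPM with CXCL10 and 94.1, 106 and 114 CPM with TGF-β alone, and changed by -0.21 (log2, SE 0.06, adjusted p = 0.0319; 0.195 unpaired, and 0.0168 unpaired without TGF-β replicate 1). That paired call was lost with DESeq2 (0.136) and without replicate 2 (0.209) or replicate 3 (0.251) of both groups. The groups did not overlap, but CXCL10 replicate 3 and TGF-β replicate 1 nearly met. The pairs differed by -0.05, -0.30 and -0.29, so that the difference was small in replicate 1.

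The CREB3 group encodes membrane-bound factors of the endoplasmic reticulum that are released by cleavage rather than by PKA. CREB3L1, which drives collagen genes, was the most abundant member of all by FPKM (144 ± 7.95 with CXCL10 and 149.6 ± 1.87 with TGF-β alone) and had 359.8, 398 and 377 CPM with CXCL10 and 387, 380.1 and 380.4 CPM with TGF-β alone. It did not pass (-0.02, SE 0.05). CREB3 had 65.2, 57.9 and 64.5 CPM with CXCL10 and 60.4, 49.4 and 52.2 CPM with TGF-β alone, with TGF-β replicate 1 above CXCL10 replicate 2, and rose by 0.21 (log2, SE 0.07, adjusted p = 0.0451; 0.241 unpaired, and 0.0322 unpaired without TGF-β replicate 1). With pairing CREB3 did not pass when scaled by library totals alone (0.17, adjusted p = 0.0976), with DESeq2 (0.198) or without replicate 2 (0.163) or replicate 3 (0.273) of both groups. CREB3L2 did not pass (0.12, SE 0.05).

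CREBRF (ENSG00000164463), a factor that restrains CREB3 and is linked to nutrient stress, had 38, 73 and 73 counts in the CXCL10 libraries and 77, 202 and 155 in the TGF-β libraries. In CPM these were 2.67, 5.77 and 5.47 with CXCL10 and 5.42, 12.6 and 11.6 with TGF-β alone. TGF-β replicate 1 lay at the level of CXCL10 replicates 2 and 3, and CXCL10 replicate 1 was lowest of all. CREBRF changed by -1.08 in the paired fit (log2, SE 0.17, adjusted p = 0.000748), with pairs at -0.98, -1.11 and -1.07. DESeq2 without pairing gave an adjusted p of 0.0374, edgeR 0.161 (0.00463 without TGF-β replicate 1), and the authors' deposited table a log2 ratio of -1.05 with an adjusted p of 0.0779. Replicate 1 differed from the others of its group by -1.03 with CXCL10 and by -1.14 with TGF-β alone.

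For all 12 called members TGF-β replicate 1 departed from TGF-β replicates 2 and 3 in the direction that CXCL10 libraries took, and for 11 of the 12 CXCL10 replicate 1 departed from its group in that direction as well, CREBBP being the exception. All 12 had the same sign in each of the 3 pairs. The fit that picked them was blocked on these same pairs, so this is no separate support for the calls. In the paired fit without replicate 1 of both groups 11 of the 12 were still called, PDE8A being lost, among 7 members higher and 7 lower (12.7% and 10.9% of all genes). What set replicate 1 apart was not tested. PDE4B, PDE4D, PDE5A, AKAP12 and CREBRF, 5 of the 12, were called in the same direction in all 6 paired fits on counts, which included DESeq2, scaling by library totals and leaving out each pair. The share of all genes called in all 6 fits was not computed, so this count is not read as particular to the members. These fits reuse the same libraries and a pairing that comes from these data, so they are not independent of each other. The 12 called members are 27.3% of those tested, against 17.7% of all genes.

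**Figure D4:**
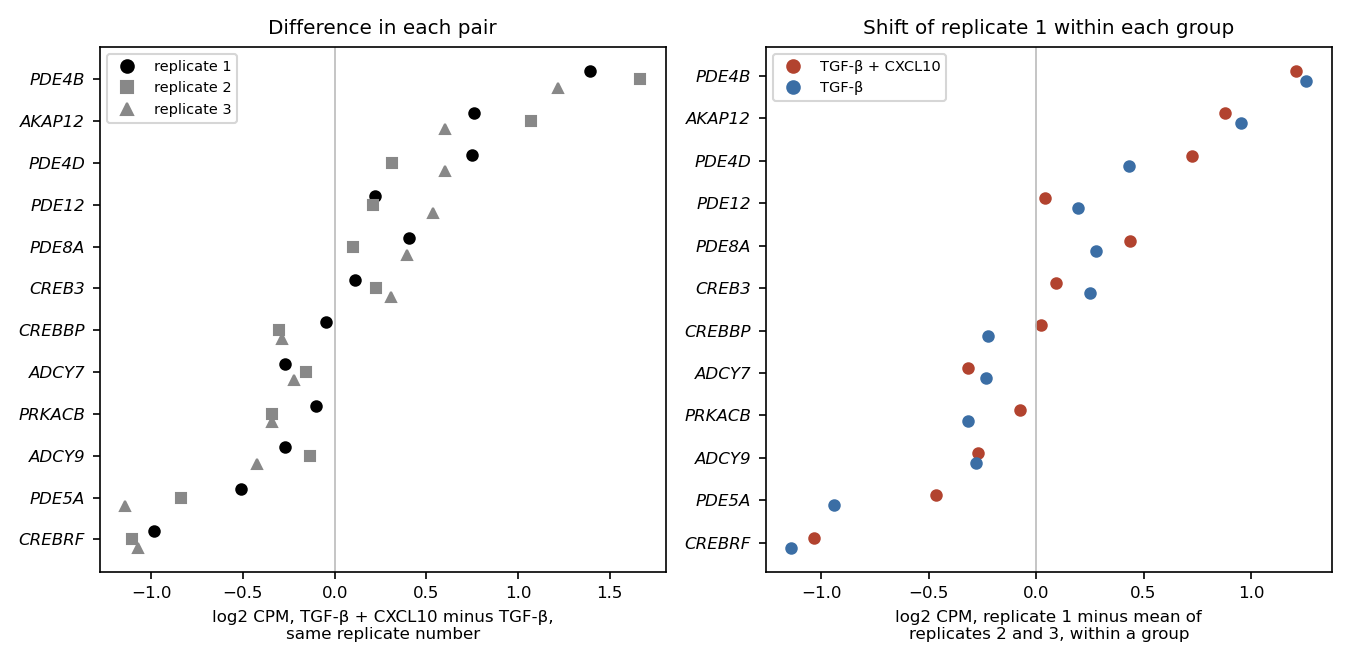
The left panel gives, for the 12 members called in the paired fit, the log2 CPM difference (TGF-β plus CXCL10 minus TGF-β) between same-numbered libraries, and the right panel the log2 CPM difference between replicate 1 and the mean of replicates 2 and 3 within each group. For PDE4B the pairs lie at 1.39, 1.67 and 1.22, and replicate 1 lies 1.21 and 1.26 above the others of its group with CXCL10 and with TGF-β alone.

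Genes around the pathway were taken from 5 lists of gene names. Of 7 tested G protein genes and regulators 3 were called higher in the paired fit and 0 lower (median 0.04), against 9.71% and 8.04% of all genes. GNAI2 and GNAI3, 2 of the inhibitory α subunits through which CXCR3 and other Gi-coupled receptors act on cyclases, rose by 0.24 (SE 0.05, adjusted p = 0.00303) and 0.24 (SE 0.06, adjusted p = 0.0105) on the log2 scale. GNAI2 had 338, 332 and 324 CPM with CXCL10 and 295, 269.6 and 275 CPM with TGF-β alone, without overlap, and RIC8A, a chaperone of Gα subunits, rose by 0.28 (SE 0.06). None of the 3 passed without pairing (adjusted p = 0.161 to 0.174, and 0.0508 to 0.158 by DESeq2). GNAI1, another inhibitory α subunit, had 29.5, 32.4 and 34.2 CPM with CXCL10 and 32.2, 40.4 and 37.5 CPM with TGF-β alone and did not pass (-0.19, SE 0.08, adjusted p = 0.131). The stimulatory subunit GNAS did not pass, with 808, 805 and 805 CPM with CXCL10 against 786, 756 and 809 CPM with TGF-β alone (0.04, SE 0.04).

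Few receptors that feed the cyclases were detected. Of 24 rows for Gs-coupled receptors 8 had 0 counts and 8 were tested, with a median of 0.18. Of those tested 1 was called higher and 0 lower in the paired fit, against 9.71% and 8.04% of all genes. PTGER4, a prostaglandin E2 receptor, was the one called (1.66, SE 0.52, adjusted p = 0.0436; 0.311 unpaired), at 2.81, 0.87 and 0.60 CPM with CXCL10 and 1.13, 0.25 and 0.075 CPM with TGF-β alone, values that overlap and lie partly under 10 counts. PTGER2, the most abundant of these receptors, did not pass (40.9, 36.5 and 37.2 CPM with CXCL10, against 38.9, 35.1 and 42.8 CPM with TGF-β alone). The adenosine receptor ADORA2B did not pass with all libraries (-0.27, SE 0.10) but was called lower in the unpaired fit without TGF-β replicate 1. GPR3 and MC1R were higher without overlap between the groups but did not pass in the paired fit (1.58 and 0.71, adjusted p = 0.0753 and 0.0838). VIPR2 was lower without overlap and did not pass either (-0.68, adjusted p = 0.329).

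Among other cAMP effectors and PKA inhibitors 1 of 7 tested genes was called lower and 0 higher, against 8.04% and 9.71% of all genes. This was ABCC4, a transporter that exports cAMP. It had 114, 118 and 113 CPM with CXCL10 and 119.8, 142 and 137 CPM with TGF-β alone, and fell by 0.21 (log2, SE 0.06, adjusted p = 0.0221; 0.185 unpaired). PKIA, an inhibitor of the PKA catalytic subunit, was higher in every CXCL10 library (3.02, 1.82 and 1.05 CPM with CXCL10, against 0.92, 0.996 and 0.45 CPM with TGF-β alone) but did not pass (1.28, SE 0.42, adjusted p = 0.0526). The better-counted inhibitor PKIG was lower without overlap (12.2, 12.1 and 10.8 CPM with CXCL10, against 13.3, 14.4 and 14.4 CPM with TGF-β alone). PKIG did not pass either (-0.26, SE 0.13, adjusted p = 0.181), nor did PKIB (-0.14, SE 0.12). The cAMP-activated exchange factor RAPGEF4 had 0 counts in all libraries. Of 13 CREB partners and regulators 1 was called lower and 0 higher, against 8.04% and 9.71% of all genes. This was the CREB coactivator CRTC3, with a paired difference of -0.30 (SE 0.08, adjusted p = 0.0213, against 0.161 unpaired).

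Of 12 tested genes that respond to cAMP and CREB in other cells, 2 were called higher, 0 lower and 10 were not called, with a median of -0.00, against 9.71% and 8.04% of all genes called in these directions. BDNF, a neurotrophin with cAMP-responsive promoters, had 71.9, 56.7 and 58.5 CPM with CXCL10 and 55.4, 37.0 and 39.7 CPM with TGF-β alone, and rose by 0.51 (SE 0.07, adjusted p = 0.000359; 0.161 unpaired, 0.0405 by DESeq2 without pairing). The phosphatase DUSP1 rose by 0.35 (SE 0.08, adjusted p = 0.0123; 0.161 unpaired). FOS, NR4A1, PER1, SIK1 and CREM did not pass, with paired differences of -0.19, -0.24, -0.19, 0.11 and 0.15 and SEs of 0.31, 0.39, 0.20, 0.12 and 0.14. SIK1 and SIK1B are near-identical copies, so that their reads are uncertain. RGS2, SIK1 and CREM stand in 2 of the lists each.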

How the data were processed

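Per the labels' protocols, total RNA went into a SMARTer mRNA library kit. GRCm38 and mm10, mouse builds, stand in the submitters' processing notes, while the deposited rows are human genes. The sources used here give no aligner, counter, annotation or strand setting, and no sequence or coordinate of the reference was used. Per the file headers, the deposited table holds raw counts and FPKM per gene and library, the authors' log2 ratio of mean FPKM, and their p-value and adjusted p, whose test no source states. Samples were grouped by title and treatment. The labels do not say that replicates were separate cultures, so p-values measure only the spread between these samples, which may be technical. Chi-square per degree of freedom between libraries of a group was 2.79 to 17.4, so no libraries agreed within sampling noise.

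Counts were tested across all genes with edgeR 4.0.16 under R 4.3.3 (TMM, quasi-likelihood test, filterByExpr with a minimum count of 10 and total of 15, Benjamini-Hochberg), with DESeq2 1.42.0 and limma 3.58.1 as alternatives. limma-trend used log2(FPKM + 1), which understates the change of low genes. DESeq2 gave no adjusted p without pairing for 8 members. SE is the log2 difference over the root of the F statistic. Log2 CPM of single libraries used a prior count of 2. The edgeR fits without and with the block were checked on simulated data. DESeq2 and limma were not. A shift of replicate 1 was simulated for the block fit alone, so the check does not cover the unpaired fit under such a shift. Intervals set by 3 counts cover counting error only. Libraries with the same number deviated together, with correlations of 0.330, 0.121 and 0.163 over 11970 genes, which met the rule of 0.1 for pairing. Replicates 2 and 3 crossed gave 0.0825 and 0.0803, so that these numbers are little set apart. The pairing comes from these data, not from the labels. Per-library values were given for members called in the unpaired or paired fit or by DESeq2, and for the most abundant by FPKM of each class and of each phosphodiesterase family. AKAP9, AKAP1, AKAP5 and AKAP8L were named, and sums and shares in CPM added, after the values were seen. Members, lists and both fits were chosen with earlier results of these data known.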

Additional observations from a re-analysis of the deposited data

How the results depend on the processing

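Without pairing, edgeR called 0 members higher and 0 lower with size factors of the DESeq2 type, library totals or no filter, as did limma-voom and limma-trend on FPKM. DESeq2 called 1 and 1. Leaving out single libraries gave 0 to 6 higher and 0 to 6 lower, the calls appearing when TGF-β replicate 1 was left out. With the replicate block edgeR called 6 and 6, DESeq2 3 and 4, edgeR with library totals 4 and 8, and limma-trend on FPKM, added after the data were seen, 1 and 3. Leaving out both libraries of a replicate number in the block fit gave 7, 5 and 3 higher and 7, 5 and 2 lower for numbers 1, 2 and 3. Without number 1 the share of all genes called was 12.7% for higher and 10.9% for lower. It was not computed without number 2 or 3, nor for library totals or limma-trend with the block. The counts of those fits are therefore not read as a result about the members. The PDE4B difference of 1.46 kept its sign throughout. It passed with the block (1.46), with DESeq2 without and with the block (1.46 and 1.47), with library totals and the block (1.42) and with limma-trend on FPKM and the block (0.74), and lay at 0.92 to 2.04 without single libraries and at 1.497, 1.35 and 1.55 without pair 1, 2 and 3. All 12 paired calls kept their sign in all alternatives, which reuse the same libraries. Depth limits PDE4B and CREBRF, with under 100 counts in most libraries. It also limits PDE4C, PDE7A, PDE7B, PDE8B, PDE10A, PDE6D, PRKAR2B, AKAP5, AKAP7 and CREB3L4, with under 100 counts in every library.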

Other observations

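FPKM and counts did not give the same picture for some members. The length implied by counts, FPKM and library total differed between libraries by a median of 1.19 times over the 44 tested members and by over 1.5 times for 9 of them. For PDE4B it was 3982, 3750 and 2258 bases in CXCL10 libraries and 3610, 3985 and 1631 bases in TGF-β libraries, so that replicate 3 of both groups stood lowest. In FPKM PDE4B had 3.58, 1.64 and 2.68 with CXCL10 and 1.495, 0.48 and 1.59 with TGF-β alone.

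AKAP10, an anchoring protein of mitochondria and endosomes picked after its values were seen, had 22.1, 21.4 and 23.3 CPM with CXCL10 and 24.6, 23.1 and 25.0 CPM with TGF-β alone (paired log2 difference -0.12, SE 0.09, adjusted p = 0.419 by edgeR). In FPKM it had 7.25, 6.17 and 5.90 with CXCL10 and 9.49, 10.6 and 9.72 with TGF-β alone, a difference of -0.56 on the log2(FPKM + 1) scale that passed in limma-trend with the replicate block (adjusted p = 0.0423; 0.245 without the block). Its implied length was 3003, 3423 and 3889 bases with CXCL10 and 2577, 2246 and 2623 bases with TGF-β alone, without overlap between the groups. What set the implied length was not tested.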
